A study of Mus musculus with 71 samples.

Results

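The LIF-STAT3 pathway was followed through 8 genes chosen by name, out of 21527 genes in the deposited tables: the receptor genes Lifr and Il6st, the kinase gene Jak1, the transcription factor gene Stat3, the feedback inhibitor genes Socs3 and Socs2, and the target kinase genes Pim1 and Pim3. All 8 passed the filter on low counts that left 12659 genes. The study metabolically labelled male mouse embryonic stem cells (mESCs) with s4U, chased the label with uridine and sequenced the 3′ ends of mRNAs by SLAM-seq, in which incorporated s4U is read as T-to-C conversions. The cells were treated with STM2457, a small-molecule inhibitor of the m6A methyltransferase Mettl3, at 20 µM, or with DMSO as control. There were 71 libraries in 18 groups, which are DMSO and STM2457 at 8 chase time points and without s4U, with 4 replicates in each group except the 3.5 h STM2457 group, which had 3.

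Every labelled culture received 100 µM s4U for 24 h with fresh medium every 3 h, then a 100-fold excess of uridine. The chase time points T0 to T7 were 0, 1, 1.5, 2.3, 3.5, 5.3, 8 and 12 h. The labels name only the steps, and the hours were taken from the methods text. Treatment began 6 h ahead of the uridine and went on during the chase, so that cells had been treated for 6 h at T0 and for 18 h at T7. The treatment time of the unlabelled cultures is not given in the labels. All groups, controls included, grew in 2i/LIF medium with 3 µM CHIR99021, 1 µM PD 0325901 and 10 ng/ml LIF. The pathway's ligand was therefore added to every culture, and no group was grown without it. Its level during the chase was not measured. The methods describe no exchange of medium during the chase, so hours of chase and age of the medium cannot be told apart. The cells are a line taken from earlier work, no age or further genotype is given, and nothing in the labels says whether replicates were separate cultures. The study's methods call its replicates independent biological ones in general, without naming this experiment, so p-values measure the spread between these libraries, which may be partly technical.

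LIF is the cytokine that keeps mESCs self-renewing. It joins the LIF receptor to gp130, the signalling chain encoded by Il6st, and the associated kinase JAK1 then phosphorylates STAT3, which enters the nucleus and activates genes. Among its targets are Socs3 and, in many cytokine systems, the Pim kinases. SOCS3 binds gp130 and JAKs and damps the signal, while SOCS2 is best known as a brake on growth hormone signalling. m6A marks mRNAs in the cytoplasm for faster decay, so an inhibitor of the methyltransferase can be asked whether it changes the amount or the lifetime of such short-lived signalling mRNAs.

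The 3′ ends of these transcripts carry sequence features that bear on lifetime. TATTTAT is the core of AU-rich elements, which are known to bind decay factors, and GGACT is the sequence in which m6A is most often found. Both were searched on the transcribed strand of the annotated 3′ UTR of 1 transcript a gene on GRCm38. In the last 500 bases, TATTTAT was present in 3 of the 8 genes, Pim1 with 4 overlapping copies, Socs3 with 2 overlapping copies and Pim3 with 2 separate copies. It was present in 15.4% of 13487 genes with a window of this length. A further copy in Socs2 lay 590 bases from the UTR end. The sites are shown because they separate the Pim and Socs genes from the receptors, Jak1 and Stat3, where no TATTTAT was found anywhere in the 3′ UTR, and the motif is in capitals.
Pim1, chr17:29495691-29495720, plus strand: taatgTATTTATTTATTTATTTATttggtt
Socs3, chr11:117966135-117966164, minus strand: tgcacataTATTTATATTTATactcagaaa
Pim3, chr15:88865221-88865250, plus strand: ccacggtctctTATTTATggtgtgatcacc
Pim3, chr15:88865268-88865297, plus strand: cctgctggggcTATTTATtgtttaatttat
Socs2, chr10:95412061-95412090, minus strand: gaccatgcttgTATTTATccctcgtcttat

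GGACT was in the last 500 bases of 0 of the 8 genes, against 34.7% of the same 13487 genes. Over the whole 3′ UTR it occurred 10 times in Il6st, whose UTR is 5641 bases long, 4 times in Lifr (6320 bases), 3 times in Jak1 (1128 bases), 2 times in Pim1 (1365 bases) and 1 time each in Stat3 (1895 bases) and Socs3 (1474 bases). No copy was found in Socs2 or Pim3. The shorter string GGAC, with which the study's GGACH motif begins, was not scarce in this way. It was in the last 500 bases of Lifr, Il6st, Stat3, Socs2, Pim1 and Pim3, but not of Jak1 or Socs3, and of 69.3% of the 13487 genes. The whole 3′ UTR held it 3 times in Socs2 and 1 time in Pim3. The 2 GGACT copies of Pim1 and that of Socs3 are printed because these transcripts also hold AU-rich cores, with GGACT in capitals. A match is a string of letters and not a measured m6A site, which these data do not contain.
Pim1, chr17:29495161-29495190, plus strand: tgccttctgtggGGACTccgcctgtgctgg
Pim1, chr17:29495515-29495544, plus strand: tagcctgcaaaaGGACTgtagatgataaca
Socs3, chr11:117967250-117967279, minus strand: cctttgacaagcGGACTctcccctcccctt

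The letters TTCNNNGAA, the palindrome that STAT dimers recognise, were searched in RefSeq promoters running from 250 bases before to 50 bases after each start site on GRCm38.p6. Of the 7 genes with a promoter in the table, Socs3 alone held a match, on the minus strand 154 bases before its start site. The motif reads the same on both strands and was present in 8.3% of 32851 promoters. Socs2 had no entry.
Socs3, chr11:117969504-117969528, minus strand: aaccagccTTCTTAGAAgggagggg

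Depth was even, at 4539726 to 7368244 counted reads a library with a median of 5726508. None of the 105 pairs of replicates held identical counts. The mESC markers fixed for this work were abundant, with a summed level of 1272 to 2688 CPM (reads scaled to a common library size) for the 7 of 8 that the tables list. Trophoblast markers summed to 10.9 to 57.4 CPM, primitive endoderm markers to 0.609 to 12.6 CPM, early mesoderm and neuroectoderm markers to 4.61 to 78.6 CPM and fibroblast markers to 3.89 to 24.3 CPM. The neuroectoderm markers Pax6 and Sox1 had no entry. The early mesoderm and neuroectoderm sum therefore rests on T (mean 20.5 CPM) and Mesp1 (0.259 CPM). The fibroblast marker Acta2 had no entry either. No marker listed in the tables was without reads in all libraries. In such bulk samples, fewer cells of a type and less RNA per cell cannot be told apart.

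12 of the 71 libraries stood apart from the rest on the first principal component of the counts, computed over 6242 genes without the 8 pathway genes and holding 41% of the variance. They were 9 DMSO and 3 STM2457 libraries, namely 3 of 4 DMSO and 3 of 4 STM2457 libraries at 1 h, 2 of 4 DMSO libraries at 1.5 h, 2 of 4 at 5.3 h, and 1 of 4 DMSO libraries each at 0 h and without s4U. Several pathway genes moved with this axis. Jak1 had a median of 20.6 CPM (range 12.7 to 31.4) in the libraries that stood apart and 59.9 CPM (28.6 to 87.1) in the other 59. Socs2 had 53.9 CPM (41.6 to 63.8) against 85.3 CPM (40.7 to 116), and Stat3 had 4.97 CPM (1.06 to 8.05) against 10.3 CPM (1.41 to 29.2). Pim1 differed less, with 60.4 CPM (50.8 to 82.2) against a median of 67.1 CPM. Il6st and Lifr were on the higher side in the libraries that stood apart, with medians of 30.8 against 26.2 CPM and 8.99 against 6.58 CPM. What sets these libraries apart was not tested. Called read comparisons of the 8 genes that include them are given below also without them and with the score on the component as a term of the model, and the half-lives fitted to means over replicates also without them. The component was computed from the same counts, and the libraries that stood apart were mostly DMSO ones. As a term it can therefore also take up differences between treatments.

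**Figure D1:**
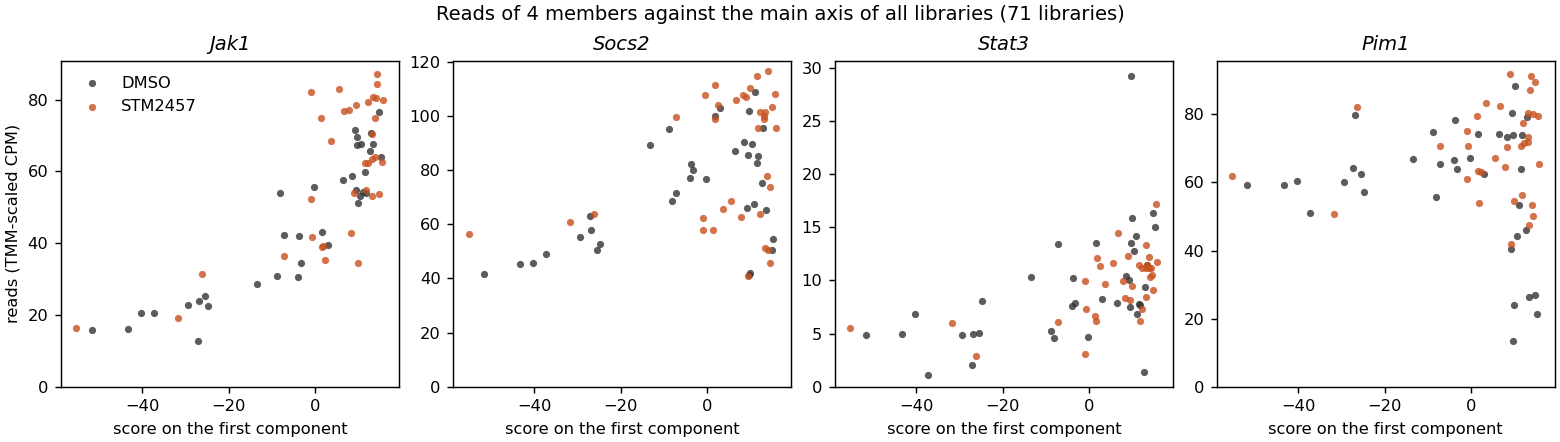
Reads of Jak1, Socs2, Stat3 and Pim1 (vertical axis, CPM scaled by TMM factors) against the score of each library on the first principal component (horizontal axis), with 1 point for each of the 71 libraries and DMSO in grey and STM2457 in orange. Jak1 climbs along the axis, from 12.7 to 31.4 CPM in the 12 libraries at the left to 28.6 to 87.1 CPM in the others, whereas the lowest Pim1 values lie among the libraries at the right.

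Levels between genes were compared as CPM per kilobase of counting window, over all 71 libraries with the SD between libraries. Libraries of this kind read each mRNA near its 3′ end, so that the window length need not scale the reads. Socs2 was the most abundant of the 8 at 294 ± 85.4, followed by Jak1 at 211 ± 82.9, Pim3 at 154 ± 37.2 and Pim1 at 109 ± 28.5. Neighbours in this order overlapped within 1 SD. Il6st followed at 52.6 ± 11, and then Socs3 at 27.5 ± 10.6, Stat3 at 18.2 ± 8.5 and Lifr at 14.1 ± 5.8, of which Socs3 and Stat3, and Stat3 and Lifr, overlapped within 1 SD. The less abundant genes rest on few reads, with 5 to 171 per library for Stat3, 9 to 107 for Lifr and 17 to 147 for Socs3. Socs2 had 209 to 723 reads per library and Pim1 78 to 590.

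To ask whether inhibition of Mettl3 changed the amount of these mRNAs relative to the others, counts were compared between STM2457 and DMSO, averaged over the 8 chase time points. With edgeR's quasi-likelihood test and Benjamini-Hochberg adjustment over all genes (adjusted p below 0.01), 4 of the 8 genes were higher under STM2457 and none was lower. These were Pim1, Jak1, Socs3 and Socs2. The background was large, since 26.5% of all tested genes were called in either direction and 13.9% were called higher. The median log2 fold change of the 8 genes was 0.23, against -0.009 for all genes tested. Of the 4 calls, Pim1 alone held with the first component as a term, where 27.4% of all genes were called, and Pim1 and Jak1 held without the 12 libraries, where 19.9% were called.

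Pim1 encodes a serine/threonine kinase that promotes survival and growth downstream of cytokine receptors. Its reads were 1.28-fold higher under STM2457 over the chase (log2 fold change 0.36 ± 0.05 SE, adjusted p = 1.3e-07), with group means averaging 58.3 CPM in DMSO and 70.7 CPM in STM2457. It kept this call under each of the 16 alternative settings, at log2 fold changes of 0.30 to 0.41. The difference was not even over time, however. At the onset of the chase, the DMSO replicates had 62.6, 66.8, 74.2 and 78.5 CPM in the order 1 to 4 and the STM2457 replicates had 70.8, 70.8, 70.5 and 91.7 CPM. These ranges overlapped, and the log2 difference was 0.11 ± 0.15 (adjusted p = 0.80).

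At 8 h the DMSO replicates had 46, 40.5, 26.5 and 44.1 CPM for Pim1, and the STM2457 replicates had 79.6, 60.9, 80.1 and 71.5 CPM. At 12 h they had 24.0, 27.1, 13.3 and 21.3 CPM in DMSO and 41.8, 47.5, 53.5 and 50.1 CPM in STM2457. At neither time did the groups overlap. Pim1 was 1.86-fold higher under STM2457 at 8 h (log2 fold change 0.89 ± 0.15, adjusted p = 4.0e-05) and 2.25-fold higher at 12 h (1.17 ± 0.16, adjusted p = 7.4e-08). Of all genes, 2.34% were called at 8 h and 5.41% at 12 h. Both calls held under each of the 17 alternatives. None of the libraries that stood apart belongs to these time points.

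In DMSO the reads of Pim1 fell earlier and further than under STM2457. Between 0 and 12 h it fell by 1.72 on the log2 scale in DMSO (SE 0.16, adjusted p = 2.6e-13), which is 3.30-fold lower, and it was already down by 0.84 at 8 h, where the change from T0 was called (adjusted p = 0.00014) as for 3.9% of all genes. Under STM2457 it fell by 0.66 at 12 h (SE 0.15, adjusted p = 0.0021), a call lost without STM2457 replicate 1, 2 or 4 (adjusted p of 0.019, 0.014 and 0.043), and was at a log2 change of -0.06 at 8 h (adjusted p = 0.92). The difference between the courses was tested itself, as the interaction of treatment and time. Pim1 was the only one of the 8 genes called (adjusted p = 0.00012), where 1.78% of all genes were called. Its log2 difference between treatments at 12 h exceeded that at 0 h by 1.07 (SE 0.22, adjusted p = 0.0013), and 1.11% of all genes were called in that contrast. As 1 DMSO library at 0 h stood apart, these values were also taken without the 12 libraries, where Pim1 fell by 0.91 at 8 h and by 1.79 at 12 h in DMSO, and the contrast was 1.15 (adjusted p = 8.6e-05). With the component as a term the falls were of 0.96 and 1.85 on the log2 scale, and the contrast was 1.14 (adjusted p = 3.0e-05). Without DMSO replicate 3, the lowest Pim1 library at both late times, the adjusted p of the interaction was 0.0104, just past the threshold. The contrast at 12 h was then 0.87 (adjusted p = 0.017), and without STM2457 replicate 3 it was 1.00 (adjusted p = 0.019). Pim1 shares 11.33% of its reads with other positions in the genome. With such reads left out, the difference at 12 h was 1.14 (adjusted p = 7.5e-07). An antisense gene, Gm26885, overlaps Pim1 on the opposite strand, and the strand setting of the counting is not given in the sources used here.

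**Figure D2:**
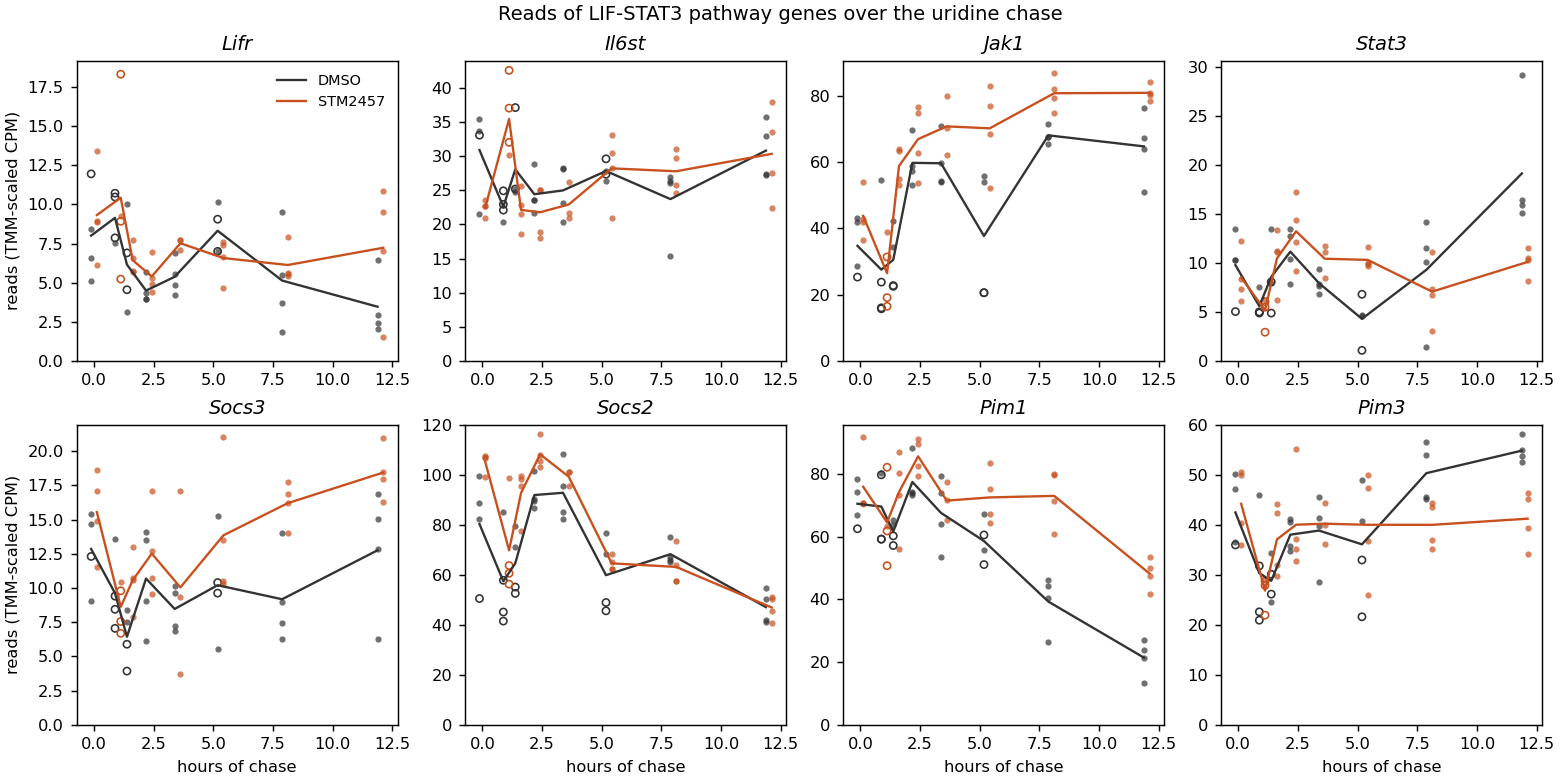
Reads of each of the 8 genes (vertical axis, CPM scaled by TMM factors) against hours of chase (horizontal axis) in DMSO (grey) and STM2457 (orange). Points are libraries, open circles are those that stood apart and lines join group means. The DMSO and STM2457 points of Pim1 separate at 8 and 12 h, Socs2 falls late in both treatments, and the low Jak1 values early in the chase and at 5.3 h are mostly open circles.

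Pim3, which encodes a related kinase, did not share this course. Its DMSO replicates had 36, 36.7, 50.3 and 47.2 CPM at 0 h and 54, 55, 52.6 and 58.2 CPM at 12 h. The STM2457 replicates had 40.4, 36, 50.1 and 50.7 CPM at 0 h and 46.5, 34.1, 39.4 and 45.2 CPM at 12 h. All STM2457 values at 12 h lay below all DMSO values, yet the log2 difference of -0.41 was not called (adjusted p = 0.21). Over the chase as a whole, the treatments differed by -0.03 (adjusted p = 0.80). The reads of Pim3 varied over the chase in DMSO by an F test over the 8 time points (adjusted p = 0.00075), but without the 12 libraries the adjusted p was 0.012, and with the component as a term it was 0.032. Without DMSO replicate 3 or 4 it was 0.029 or 0.013.

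The reads of Socs2 fell late in both treatments, as those of Pim1 did. In DMSO its replicates had 50.6, 89.1, 99.9 and 82.3 CPM at 0 h, the first being a library that stood apart, and 42.1, 50.5, 41.3 and 54.7 CPM at 12 h. Under STM2457 they had 108, 99.5, 107 and 107 CPM at 0 h and 40.7, 51.4, 50.5 and 45.5 CPM at 12 h. The STM2457 groups at 0 and 12 h were far apart, and the 12 h values of the treatments overlapped. Socs2 fell by 0.77 on the log2 scale in DMSO (SE 0.17, adjusted p = 0.00035) and by 1.16 under STM2457 (SE 0.17, adjusted p = 7.6e-07), the latter 2.24-fold lower. The DMSO change was -0.96 without the 12 libraries (adjusted p = 3.9e-10) and -1.15 with the component as a term (adjusted p = 3.1e-14), and its call was lost without DMSO replicate 3 (-0.59, adjusted p = 0.027). Of all genes, 13.1% were called between 0 and 12 h in DMSO and 4.72% under STM2457. Under STM2457, the fall was called from 5.3 h, with a log2 change of -0.70 (adjusted p = 0.0076), where 0.932% of all genes were called, but that call was lost without any one of the 4 STM2457 replicate numbers (adjusted p of 0.037 to 0.089) or without DMSO replicate 3 (0.011). The treatments did not differ in their course by the interaction test (adjusted p = 0.46). The call of Socs2 in the mean over the chase (0.19 ± 0.06, adjusted p = 0.0081) was lost with the component as a term (0.05, adjusted p = 0.38) and without the 12 libraries (0.09, adjusted p = 0.16). It was also lost in 7 of 8 cases when 1 replicate number of a treatment was left out, all but DMSO replicate 1 (adjusted p of 0.014 to 0.10), and with other scalings of library size.

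Socs3, the feedback inhibitor and the gene with the STAT motif in its promoter, was among the less abundant. Over the chase it was 1.31-fold higher under STM2457 (log2 fold change 0.39 ± 0.12, adjusted p = 0.0068), with means of 10.0 and 13.2 CPM. No single condition was called. At 12 h the DMSO replicates had 6.24, 16.9, 12.8 and 15.1 CPM and the STM2457 replicates had 16.3, 18.5, 18 and 21 CPM, overlapping through DMSO replicate 2. The call over the chase was lost with the component as a term (0.29, adjusted p = 0.040), without the 12 libraries (0.31, adjusted p = 0.077), and without DMSO replicate 2 or 3 or any one of the STM2457 replicate numbers (adjusted p of 0.010 to 0.053). The reads of Socs3 were not called as varying over the chase in either treatment (adjusted p = 0.18 in DMSO and 0.059 in STM2457). DESeq2 did call Socs3 under STM2457 (adjusted p = 0.0060).

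Jak1, the kinase that gp130 needs for signalling, followed the library axis most closely. At 0 h its DMSO replicates had 25.3, 28.6, 43.1 and 42.05 CPM and its STM2457 replicates had 41.9, 36.5, 42.7 and 54.1 CPM. At 12 h the values were 51.1, 76.6, 67.5 and 64.1 CPM in DMSO and 78.6, 80.9, 80.4 and 84.3 CPM in STM2457. Later libraries were thus higher in both treatments, and all 12 h STM2457 values lay above all 12 h DMSO values. Between 0 and 12 h Jak1 rose by 0.90 in DMSO (SE 0.26, adjusted p = 0.0091). With the component as a term this change was 0.23 (adjusted p = 0.32), and without the 12 libraries it was 0.75 (adjusted p = 1.3e-04). The call was lost without any one replicate number of either treatment but DMSO replicate 4 (adjusted p of 0.012 to 0.10). Under STM2457 the change was 0.89 (SE 0.26, adjusted p = 0.019), which missed the threshold. It was called without DMSO replicate 1 or 4 (adjusted p of 0.0038 and 0.0082), with the component (0.57, adjusted p = 0.0022) and without the 12 libraries (0.90, adjusted p = 1.1e-06).

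Over the chase Jak1 was 1.31-fold higher under STM2457 (log2 fold change 0.39 ± 0.09, adjusted p = 0.00063). This became 0.20 without the 12 libraries (adjusted p = 0.0097) and 0.16 with the component (adjusted p = 0.015). The one condition in which Jak1 was called was 1.5 h, at a log2 fold change of 0.95 (SE 0.27, adjusted p = 0.0097), where 8.18% of all genes were called. There the DMSO replicates had 34.5, 22.7, 42.4 and 22.5 CPM, of which the second and the fourth are libraries that stood apart, and the STM2457 replicates had 54.8, 64.1, 53.1 and 63.5 CPM. Without those libraries the difference was 0.61 (adjusted p = 0.022), and with the component as a term it was 0.08 (adjusted p = 0.86). The call was also lost without DMSO replicate 2 or 4 or any one of the STM2457 replicate numbers (adjusted p of 0.016 to 0.052). Jak1 overlaps Raver2 and a small nuclear RNA gene on the opposite strand and a processed pseudogene on its own strand.

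Stat3 itself rests on few reads and scattered widely. Its DMSO replicates had 5.03, 10.3, 13.5 and 10.3 CPM at 0 h and 15.9, 16.4, 29.2 and 15.1 CPM at 12 h, the third being the highest Stat3 value of all libraries. Under STM2457 the 12 h values were 8.15, 11.5, 10.3 and 10.5 CPM, all below the DMSO values. The log2 difference at 12 h was -0.92 (adjusted p = 0.095) and was not called. At 5.3 h the difference had the opposite sign, 1.25 (adjusted p = 0.026), also not called, and 2 of the 4 DMSO libraries there stood apart. It was 1.15 without the libraries that stood apart (adjusted p = 0.13) and 0.83 with the component as a term (adjusted p = 0.24). The mean over the chase was 0.07 (adjusted p = 0.73). Stat3 varied over the chase in DMSO by the F test (adjusted p = 0.00012), a call that held with the component as a term (adjusted p = 0.0085) and without the 12 libraries, but was lost without DMSO replicate 3 (adjusted p = 0.029). It was not called under STM2457 (adjusted p = 0.089), except by DESeq2 (adjusted p = 0.0046). Stat5a overlaps Stat3 on the opposite strand.

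The range of Stat3's 18 group means was 2.24 on the log2 scale, wider than that of Pim1 at 2.03 and Jak1 at 1.74. Among the 5 tested genes whose 18 group means correlated best with those of Stat3 were Camta2 (Pearson's r = 0.87), Ptk2b (0.86), Def6 (0.86) and Tchp (0.86). These values are a description over 18 means that share libraries and the library axis.

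Among the receptor genes, Lifr had few reads and no call between treatments. At 12 h its DMSO replicates had 2.42, 2.93, 2.05 and 6.43 CPM and its STM2457 replicates had 10.9, 7.02, 9.52 and 1.52 CPM. STM2457 replicate 4 was the lowest of all 8, and the log2 difference of 1.06 was not called (adjusted p = 0.068). Without that replicate number the difference was 1.40 and called (adjusted p = 0.0083). Over the chase the difference was 0.27 (adjusted p = 0.10). In DMSO, the log2 change of Lifr from 0 to 12 h was -1.20, which edgeR's test did not call (adjusted p = 0.017). It was called under 3 of 16 alternative settings. Among these were leaving out DMSO replicate 4 (-1.80, adjusted p = 0.0025) or STM2457 replicate 4 (-1.22, adjusted p = 0.0074).

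Il6st was the steadiest of the receptor genes. Over the chase the treatments differed by -0.03 (adjusted p = 0.78). At 1 h, where 3 of 4 libraries of each treatment stood apart, the DMSO replicates had 20.4, 22.9, 24.9 and 22.1 CPM and the STM2457 replicates had 42.6, 37.1, 30.2 and 32 CPM. The groups did not overlap, and the log2 difference of 0.65 just missed the threshold (adjusted p = 0.019). With the component as a term it was 0.65 and called (adjusted p = 0.0095). Without the libraries that stood apart 1 library of each treatment was left, and the difference was 0.54 (adjusted p = 0.74, with those libraries assumed to vary like the other groups). At 0 h the DMSO replicates had 33.1, 35.4, 33.6 and 21.5 CPM and the STM2457 replicates 22.7, 23.5, 20.9 and 22.7 CPM, a difference of -0.46 (adjusted p = 0.13). Il6st varied over the chase under STM2457 (adjusted p = 0.0030), but not with the component as a term (adjusted p = 0.074) or without the 12 libraries (adjusted p = 0.14), nor without STM2457 replicate 1, 2 or 4 (0.10, 0.081 and 0.011).

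Over all 9 conditions, 3 of the 72 tests of a gene in a condition were called, Pim1 at 8 and 12 h and Jak1 at 1.5 h, against 3.23% of such tests over all genes. By the F test over the chase, 5 of the 8 genes were called in DMSO (Pim1, Socs2, Jak1, Stat3 and Pim3), where 30.1% of all genes were, and 4 under STM2457 (Socs2, Jak1, Pim1 and Il6st), where 19.1% were. With the component as a term these numbers were 3 and 3, with Pim1 and Socs2 among them in both treatments, and the background fell to 14.1% and 10.6%. Without the 12 libraries they were 4 and 3, against 17.2% and 10.6% of all genes. Comparisons with the same T0 group or the same treatment share libraries.

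**Figure D3:**
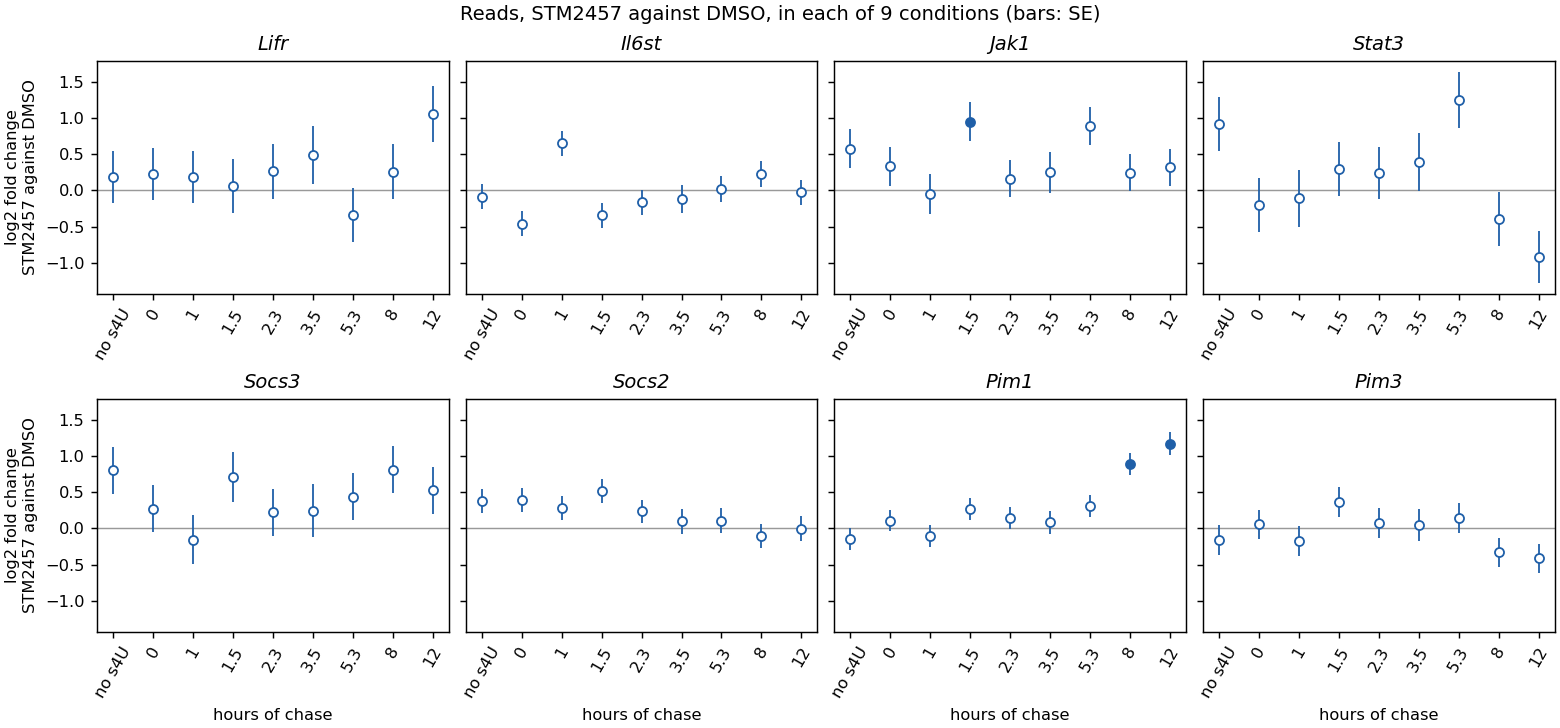
Log2 fold change of reads between STM2457 and DMSO (vertical axis, with SE as bars) in the unlabelled libraries and at each chase time point (horizontal axis) for the 8 genes, with filled points for adjusted p below 0.01. Filled points are Pim1 at 8 and 12 h (0.89 and 1.17) and Jak1 at 1.5 h (0.95), and the bars of Lifr, Stat3 and Socs3 are wide.

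T0 libraries, labelled with s4U for 24 h, were compared with unlabelled libraries. The treatment time of the latter is not given, so labelling and hours of treatment cannot be told apart. There was no call among the 8 genes in either treatment by edgeR's quasi-likelihood test, where 0.513% of all genes were called in DMSO and 0.521% under STM2457. At an unadjusted p below 0.05 there were 0 in DMSO and 2 under STM2457. With DESeq2 there was also no call, with 1 and 2 genes at an unadjusted p below 0.05.

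To ask whether the lifetime of these mRNAs changed, the conversion rate was followed over the chase. The rate is the share of sequenced T positions in the 3′ window read as C, from which the mean rate of that treatment's unlabelled libraries was taken off. At the onset of the chase the rates ranged from 0.837% for Socs3 to 1.83% for Lifr in DMSO, and from 0.721% for Socs3 to 1.56% for Lifr under STM2457. Pim1 had 1.06% ± 0.31 (SD, n = 4) in DMSO and 1.10% ± 0.17 in STM2457, and Jak1 had 1.19% ± 0.24 and 1.10% ± 0.11. By limma with Benjamini-Hochberg adjustment (adjusted p below 0.05), 0 of 8 differed between treatments, also at an unadjusted p below 0.05, where the lowest p was 0.34 for Socs2 (an unadjusted limma p, not an exact test). Of 10819 transcripts tested, 0.0277% were called.

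Exponential decay was fitted to means over replicates of the rate relative to that at 0 h. The study's methods describe this model, but how replicates were combined is not given in the sources used here. All 8 transcripts met the limits on coverage, half-life and residual error, as did 7363 of 11346 covered transcripts. In this fit, 7 of the 8 transcripts were shorter-lived than the median transcript, for which the half-life was 3.19 h in DMSO and 3.45 h under STM2457. Il6st had the shortest half-life, 1.60 h in DMSO and 1.81 h under STM2457, with 7.33% and 7.27% of all fitted transcripts shorter. Next came Pim1 in DMSO, at 1.79 h with 10.8% shorter, and Pim3 under STM2457, at 2.00 h with 10.2% shorter. Pim1 had 2.04 h under STM2457 and Pim3 2.08 h in DMSO. The other half-lives in the order DMSO and STM2457 were 2.14 and 3.05 h for Stat3, 2.39 and 2.41 h for Socs2, 2.47 and 2.3 h for Socs3, and 2.54 and 2.86 h for Lifr.

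Without the 12 libraries that stood apart, Il6st remained the shortest at 1.40 and 1.55 h and Jak1 the longest at 4.34 and 4.2 h. Pim1 then had 2.24 and 2.3 h, Stat3 1.67 and 2.71 h, and Socs3 missed the limit on residual error. With rates pooled over replicates, Stat3 had 2.21 and 3.52 h, against medians of 3.18 and 3.46 h, so that under STM2457 it lay above the median. When the labelled amount (rate multiplied by reads) was fitted in place of the rate, Il6st had 1.26 and 2.08 h, Stat3 1.81 and 3.95 h, Socs3 1.39 and 1.28 h and Pim3 1.54 and 1.53 h. In that fit Pim1 had 1.82 and 1.99 h, Socs2 2.29 and 2.10 h, and Lifr 1.98 and 1.98 h. The median transcript of that fit had 3.15 and 3.37 h, and Stat3 under STM2457 lay above it. Jak1 had 8.31 and 6.70 h in that fit and missed the limit on residual error.

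Jak1 was the exception, with 5.21 h in DMSO and 4.33 h under STM2457, and with 85.4% and 72.8% of transcripts shorter. It is also one of the genes without TATTTAT in its 3′ UTR, as are Il6st, Lifr and Stat3, which were short-lived. The genes with that motif in the last 500 bases, Pim1, Pim3 and Socs3, had half-lives of 1.79, 2.08 and 2.47 h in DMSO, within the range of the others.

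The single exponential described the points only roughly. In the median fitted transcript 59.5% of the label remained at 3.5 h and 14.4% at 5.3 h in DMSO, and 60.2% and 18.3% under STM2457. Pim1 kept 34% at 3.5 h in DMSO and 1.04% at 5.3 h, and under STM2457 30.4% and 0.10%. Jak1 kept 91.7% at 3.5 h and 39.6% at 5.3 h in DMSO, and 73.7% and 21.8% under STM2457. Il6st was down to 15.5% at 3.5 h in DMSO and 14.2% under STM2457. By 8 h the remaining label of each of the 8 transcripts was between -7.3% and 15.8% of that at 0 h, and that of Pim1 was -3.34% in DMSO and 0.841% under STM2457, at or near the unlabelled libraries.

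**Figure D4:**
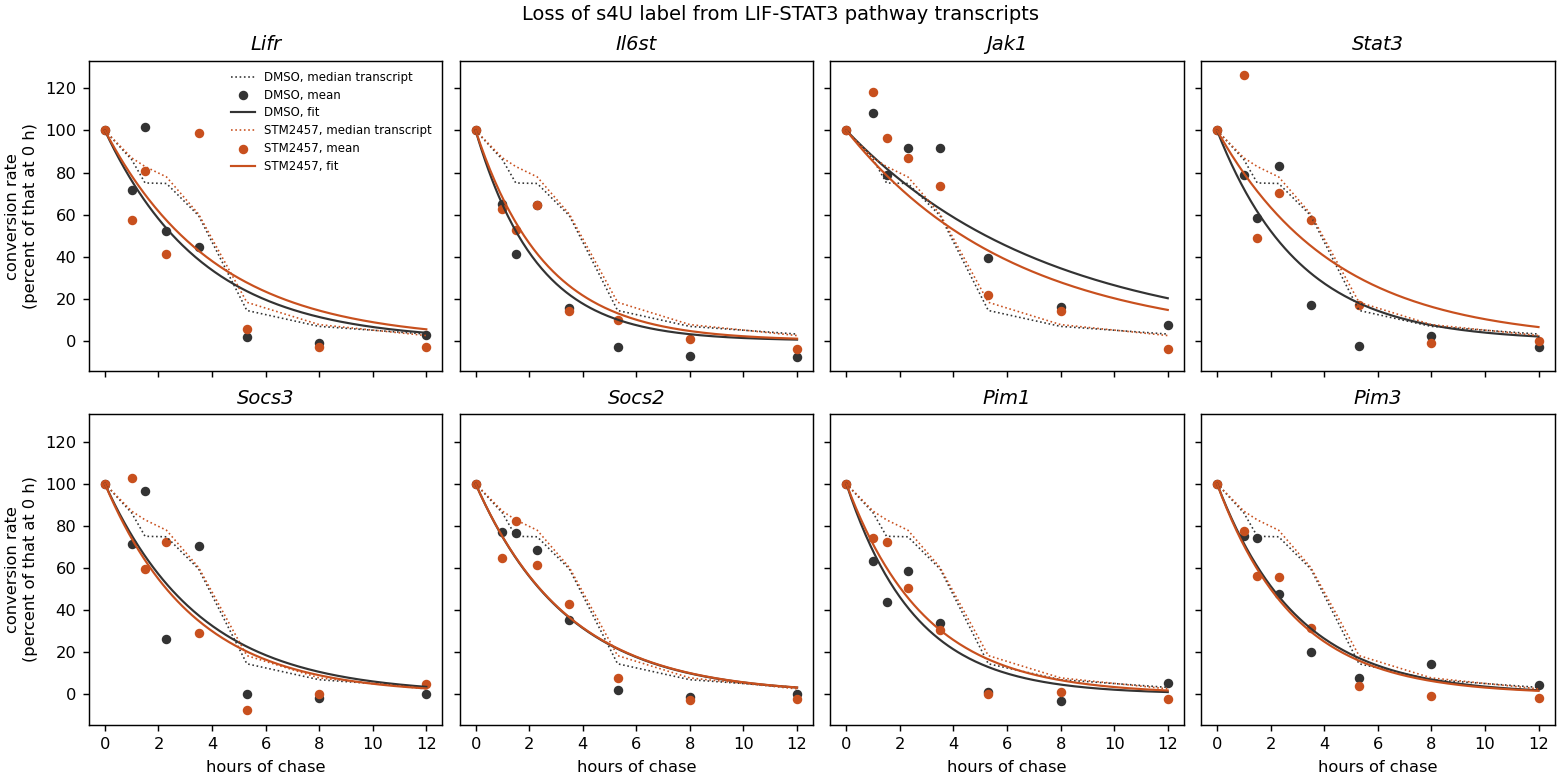
Conversion rate as percent of that at 0 h (vertical axis) against hours of chase (horizontal axis) for the 8 genes in DMSO (grey) and STM2457 (orange). Dots are means over replicates after subtraction of the unlabelled rate, solid lines the exponential fit and dotted lines the median of the fitted transcripts. Jak1 lies above the median transcript from 1 to 5.3 h, with 39.6% left in DMSO at 5.3 h, while Pim1 and Il6st lie below it up to 3.5 h.

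For an error between replicates, a half-life was also fitted to each series of libraries with one replicate number. Pim1 had 1.26, 2.67, 2.12 and 1.46 h in DMSO and 2.77, 1.54, 2.43 and 1.60 h under STM2457. These ranges overlapped almost wholly, and the ratio of STM2457 to DMSO was 1.12 (95% confidence interval 0.675 to 1.86). This interval contains 1 and reaches a 1.86-fold longer half-life. Jak1 had 6.13, 6.83, 4.51 and 4.18 h in DMSO and 3.70, 4.14, 4.84 and 4.26 h under STM2457, with a ratio of 0.795 (0.539 to 1.17). Socs2 had 2.04, 4.17, 2.69 and 1.50 h against 2.53, 2.39, 2.44 and 2.12 h, with a ratio of 0.977 (0.593 to 1.61). Il6st had 1.10, 1.71, 1.76 and 1.87 h against 2.03, 1.53, 1.49 and 4.19 h, with a ratio of 1.33 (0.752 to 2.35). STM2457 series 4, which gave the 4.19 h, had no 3.5 h library. Without it the log2 half-life difference of Il6st was 0.08, against 0.41 over all series.

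The remaining transcripts had wider intervals. They were 0.431 to 2.10 for Pim3 (ratio 0.951), 0.396 to 3.17 for Socs3 (1.12), 0.354 to 3.30 for Lifr (1.08) and 0.494 to 5.05 for Stat3 (1.58). With replicate number as a block, the log2 half-life difference of Socs3 was 0.16 (95% confidence interval -0.45 to 0.77). That of Stat3 was 0.66 (-0.23 to 1.55). The interval of Pim3 also narrowed with the block, and that of Lifr widened. In limma, 0 of the 8 differed between treatments, with adjusted p from 0.78 to 0.99, and none at an unadjusted p below 0.05. Other measures of decay gave no call either, but 2 unadjusted p below 0.05. The labelled amount gave Il6st a log2 half-life difference of 1.00 (95% confidence interval 0.0056 to 2.00, an unadjusted limma p of 0.049, not an exact test, and an adjusted p = 0.74). The slope of the log2 rate per hour differed by -0.18 for Jak1 (an unadjusted limma p of 0.031, not an exact test, and an adjusted p = 0.50). Of all 6244 transcripts fitted in every series, 0.016% were called and 513 had an unadjusted p below 0.05. The median SD of log2 half-life between DMSO series was 0.46.

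**Figure D5:**
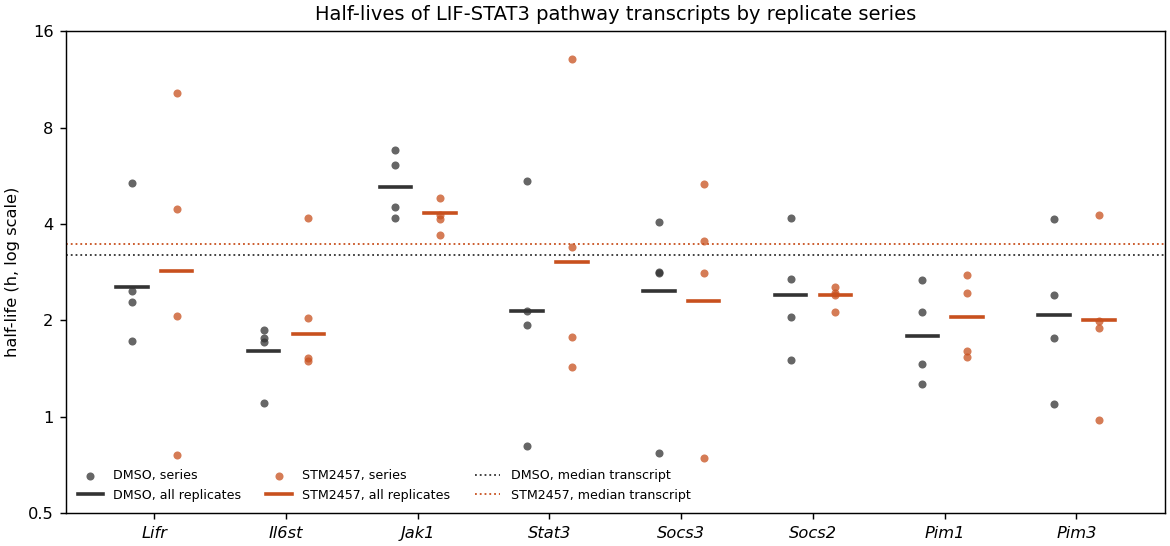
Half-lives in hours (vertical axis, log scale) of the 8 transcripts in DMSO (grey) and STM2457 (orange). Dots are the 4 replicate series, bars the fit to means over replicates and dotted lines the medians of all fitted transcripts (3.19 and 3.45 h). Jak1 alone lies above both medians in every series, and the DMSO and STM2457 dots of every gene overlap.

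The other genes of the pathway were read from 4 lists. Of 11 ligand and receptor genes of the gp130 family, 5 passed the filter, and none differed between treatments over the chase by edgeR's quasi-likelihood test or DESeq2, with 1 at an unadjusted p below 0.05 in each. Over all genes tested 13.9% were called higher and 12.6% lower, against which the counts of the lists are to be read. Of 10 kinase, phosphatase and adaptor genes, all tested, 1 was higher (Grb2, an adaptor, 0.13) and 3 were lower (the kinase Tyk2, -0.35, and the phosphatases Ptpn11, -0.34, and Ptpn2, -0.22), with a list median of -0.04. Of these, Ptpn11 alone held both with the component as a term and without the 12 libraries. Of 16 other STATs and inhibitors, all tested, 3 were higher and 2 lower, beside 26.5% of all genes called in either direction, with a list median of 0.05. Socs6, a SOCS-box gene, was 0.58 higher (SE 0.05, adjusted p = 3.0e-14). Pias4 (0.35) and Pias3 (0.33), SUMO ligases that inhibit STATs, were higher, and Stat4 (-0.63) was among the lower. Of these 4 named genes, Socs6 and Pias4 held under both alternatives.

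The list of 10 genes known as STAT3 targets in mESCs had the highest median, 0.24. All 10 were tested, and 5 were higher under STM2457, beside 13.9% of all genes, among them the homeobox gene Gbx2 (0.51), Bcl3 (0.40), the naive pluripotency factor Tfcp2l1 (0.33) and the survival gene Mcl1 (0.29), and 1 was lower, Pim2 (-0.54), the third Pim kinase. Of these 5 named genes, all but Bcl3 held under both alternatives. At 12 h, where Pim1 was 1.17 higher, Gbx2 was 1.41, Tfcp2l1 1.05 and Mcl1 0.46 higher, and no gene of the other 3 lists was called. At an unadjusted p below 0.05 these lists held 1, 1 and 3 genes at 12 h with edgeR and 1, 1 and 5 with DESeq2, which called none of them either. Tfcp2l1 was the only listed gene with a treatment by time interaction (adjusted p = 0.0076).

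Over the chase the targets changed in both directions. Between 0 and 12 h in DMSO, Gbx2 fell by 2.26 on the log2 scale, Pim2 by 0.89 and Mcl1 by 0.60, while Klf5 rose by 1.03. Under STM2457, Gbx2 fell by 1.35, Pim2 by 1.16 and Mcl1 by 0.40, while Tfcp2l1 rose by 1.32. These calls held under both alternatives. Outside the targets, the adaptor gene Gab1 fell by 0.59 in DMSO and 0.57 under STM2457, Socs5 and Socs7 rose by 0.90 and 0.76 and Pias2 fell by 0.45 in DMSO, and Cntfr, a receptor subunit gene, fell by 1.87 under STM2457. Socs5 lost its call under both alternatives and Pias2 with the component.

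By the F test over the chase in DMSO, where 30.1% of all genes were called, 1 of the 5 tested ligand and receptor genes was called (Lif), 4 of the 10 kinase and adaptor genes (Jak3, Shc1, Gab1 and Grb2), 6 of the 16 other STATs and inhibitors (Cish, Socs1, Socs5, Pias3, Socs7 and Pias2) and 4 of the 10 targets (Gbx2, Klf5, Pim2 and Mcl1). Under STM2457, where 19.1% of all genes were called, the numbers were 1 (Cntfr), 3 (Ptpn6, Ptpn11 and Gab1), 3 (Stat4, Pias3 and Pias2) and 5 (Tfcp2l1, Gbx2, Klf5, Pim2 and Mcl1). The difference between T0 and unlabelled libraries was called for Mcl1 under STM2457 alone (0.44, adjusted p = 0.0039). The median half-life of 3 of the lists lay below that of all fitted transcripts. It was 2.19 h in DMSO and 2.53 h under STM2457 for the 6 fitted targets, 1.89 and 2.32 h for 8 other STATs and inhibitors, and 2.78 and 3.33 h for 7 kinase and adaptor genes, beside 2.26 and 2.35 h for the 8 genes described above. The 1 fitted ligand and receptor gene was longer-lived than the median transcript, at 3.35 and 4.21 h.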

How the data were processed

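The authors deposited 1 table per library with the read count of each 3′ UTR window, its multimapping reads, T coverage, T-to-C conversions and conversion rate, a fraction, and library-scaled reads (CPM). Per the study's methods, reads were mapped and converted bases counted with SLAM-DUNK on GRCm38, up to 100 positions per read were allowed, variants seen in the unlabelled libraries at a fraction of 0.2 or more were masked, and windows were collapsed per gene. The submitters' processing notes name FastQC 0.11.8 and GRCm38.p6. The aligner's own settings on strand are not given in the sources used here. Multimapping reads made up 22.48 to 28.82% of each library.

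From the counts, log2 fold changes were fitted over all 71 libraries in 18 groups with edgeR 4.0.16 (TMM scaling, filterByExpr, quasi-likelihood test, Benjamini-Hochberg adjusted p below 0.01) in R 4.3.3. DESeq2 1.42.0 was an alternative. CPM in the text are counts scaled by library totals and TMM factors. The deposited CPM were not tested. Half-lives used the rate minus the unlabelled mean, divided by that at T0, keeping T coverage above 100, half-lives between 0.67 and 18 h and residual standard errors no larger than 0.3. Log2 half-lives and rates at T0 were tested with limma 3.58.1 (adjusted p below 0.05). The scripts were tested on simulated data. Gene positions and 3′ UTRs came from GENCODE on GRCm38, promoters from RefSeq, and motif counts from Python 3.11.15.

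The 8 genes and the gene lists were chosen with earlier results of these data known. Named were all 8 genes, the called genes of the lists (at most 6 a direction by size, or by range of group means for F tests), and the 5 genes most like the one with the widest range; some of these are not reported here. Alternatives were other scalings, no filter, a replicate block, each replicate left out and other decay fits. Chosen after seeing the data were leaving out the 12 libraries that stood apart (also in the decay fit to means), their component as a term, and leaving out multimapping reads.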

Additional observations from a re-analysis of the deposited data

Results flagged for a closer look

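In 14 of 168 groups of 4 libraries or series (8.33%), a single value of one of the 8 genes lay far from the other 3, where chance gives about 1 in 20. Values are in CPM with the range of the other 3. In DMSO, Il6st was at 21.5 at 0 h (33.1 to 35.4), at 37.1 at 1.5 h (24.7 to 25.3) and at 15.4 at 8 h (26.1 to 27). Stat3 was at 7.51 at 1 h (4.88 to 4.99) and at 29.2 at 12 h (15.1 to 16.4), and Pim1 was at 88.4 at 2.3 h (73.4 to 74.3).

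Under STM2457, Lifr was at 7.92 at 8 h (5.40 to 5.63), Stat3 at 11.6 at 5.3 h (9.71 to 9.98), Socs2 at 99.5 at 0 h (107 to 108), Pim1 at 91.7 at 0 h (70.5 to 70.8) and Pim3 at 22 at 1 h (27.9 to 28.9). Without s4U, STM2457 libraries had Jak1 at 62.3 (34.6 to 39.2) and Pim3 at 27.7 (40.6 to 40.8). The half-life of Stat3 in STM2457 series 4 was 13.2 h, where the other series gave 1.43 to 3.4 h. Without that series the log2 half-life difference of Stat3 between treatments was -0.01, against 0.66 over all series.

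The difference of Pim1 between treatments at 12 h exceeded that at 0 h by 1.07 on the log2 scale, by a test of that difference.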

How the results depend on the processing

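Of the 8 genes, 4 were called between treatments over the chase. With the first component as a term 1 was called, without the 12 libraries that stood apart 2, and with 1 replicate number of a treatment left out 2 to 4. Calls by condition numbered 3, with 2 to 5 when a replicate was left out (5 without DMSO replicate 1) and 7 at an adjusted p below 0.05. Genes varying over the chase in DMSO numbered 5, with 3 under the component and 3 to 6 with a replicate left out (3 without DMSO replicate 3). Under STM2457 they numbered 4, with 2 to 4 when a replicate was left out (2 without STM2457 replicate 1, 2 or 4). With DESeq2 they numbered 6 under STM2457. The interaction was called for 1 gene, for 0 to 1 with a replicate left out, for 2 with DESeq2 (Il6st besides Pim1) and for 2 at an adjusted p below 0.05. The cause of these changes was not tested. Half-lives passed the limits for 6 to 8 genes with a replicate left out.

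Values that changed sign were uncalled ones. Over the chase, the log2 fold change of Il6st was 0.02 with the component, that of Stat3 was -0.07 with the component, -0.04 without the 12 libraries and -0.02 to 0.15 with a replicate left out, and that of Pim3 was -0.07 to 0.02 with a replicate left out. At 12 h, leaving out a replicate gave -0.14 to 0.12 for Il6st and -0.06 to 0.10 for Socs2, which was 0.02 without the 12 libraries, 0.02 without multimapping reads and 0.0018 in a fit of that condition alone. Log2 half-life differences with a replicate left out ran from -0.50 to 0.76 for Lifr, -0.01 to 1.12 for Stat3, -0.35 to 0.75 for Socs3, -0.26 to 0.23 for Socs2, -0.0054 to 0.36 for Pim1 and -0.44 to 0.27 for Pim3. Without the 3.5 h libraries Lifr was at -0.27. The area under the curve gave -0.21 for Socs3, and the slope of the log2 rate gave -0.14 for Socs3, 0.12 for Socs2 and -0.12 for Pim1. Rate differences at T0, in percentage points, with a replicate left out ran from -0.62 to 0.06 for Lifr, -0.27 to 0.40 for Il6st, -0.45 to 0.18 for Stat3, -0.26 to 0.02 for Socs3 and -0.07 to 0.18 for Pim1, and Il6st was at -0.06 with no background subtracted.

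Over all genes, replicate numbers did not pair the samples. Same-numbered libraries deviated together with a mean correlation of 0.01 over 35 pairs (1 above 0.1), and half-life series with 0.019. Single genes differed in this. With the replicate block, the SE of the log2 half-life difference fell from 0.67 to 0.26 for Socs3 and from 0.75 to 0.37 for Stat3. It also fell for Pim3 (0.51 to 0.39), and slightly for Il6st and Socs2. It rose for Lifr (0.72 to 0.74), Jak1 (0.25 to 0.29) and Pim1 (0.33 to 0.36). The replicate block left the numbers of calls at 4, 3, 5, 4 and 1 for reads and at 0 for half-lives and T0 rates. Of the other values, 467 kept direction and call, 46 changed sign, 34 lost and 7 gained a call. Depth limits Stat3, Lifr and Socs3 most.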
